A study of Ovis aries with 8 samples.

Results

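Transcripts of 9 pituitary genes were examined in RNA sequencing libraries of the mediobasal hypothalamus of adult Ile-de-France ewes. The genes were chosen by symbol, and all 9 had a row among the 33609 genes of the count table and enough reads to be among the 18193 genes tested. CGA, TSHB and EYA3 are set here as genes of the pars tuberalis, and LHB, FSHB, PRL, GH, PITX1 and LHX3 as genes of the pars distalis. The study compared 60 food-restricted ewes with 60 well-fed ewes (ad libitum), 30 of each in each of 2 successive years. RNA of 15 ewes was mixed at random into each library, so that each group has 4 pools and n counts pools. The degree and length of the restriction, the season and the year of each pool have no entry in the sources used here. With 15 ewes in each of 4 pools, the 60 ewes of a group could each be used once, but the labels do not state whether pools share ewes. p-values measure the spread between these pools only.

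The anterior pituitary has a bulk lobe, the pars distalis, and a thin sheath around the stalk, the pars tuberalis, which lies against the floor of the hypothalamus and can be collected with it. Gonadotrophs of the pars distalis make luteinising and follicle-stimulating hormone, lactotrophs make prolactin and somatotrophs make growth hormone. In sheep the pars tuberalis carries melatonin receptors and reads day length. Its thyrotrophs make thyrotropin, a dimer of the CGA and TSHB proteins, which acts on tanycytes of the hypothalamus and induces the enzyme DIO2 there. EYA3 is a transcriptional cofactor that, with TEF, activates TSHB under long days in sheep. The division of the 9 genes is not strict: CGA and TSHB are also made in the pars distalis, PITX1 and LHX3 act throughout the anterior pituitary, and EYA3 is transcribed in many tissues.

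Total counts were between 36192025 and 48125991 per pool. Values are CPM, the reads of a gene divided by the size of its library after scaling by the trimmed mean of M values and set to a common total. They are comparable between pools but not between genes of different length. The genes AGRP, NPY, GHRH, TAC3, KISS1, TBX3 and NKX2-1 of the mediobasal hypothalamus were detected in all pools. The pools stood apart in a way that crosses the groups. A first principal component (34.6% of the variance over 18157 genes) was computed without 36 tested genes. These were the lists of pars tuberalis genes, pars distalis genes, pituitary transcription factors and pituitary receptors for releasing factors. Genes of the other lists, such as AVP and OXT, stayed in it. Food-restricted pools 1 and 2 and well-fed pools 3 and 4 lay above 0 on this component. Food-restricted pools 3 and 4 and well-fed pools 1 and 2 lay below it. The 2 sets are called the upper and lower pools. Food-restricted pool 4 was the closest to 0, at -9.19, where the other lower pools were between -64.2 and -32.8 and the upper pools between 29.3 and 46.1. The labels give no batch that corresponds to this split.

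None of the 9 genes passed the test between the groups (edgeR quasi-likelihood, adjusted p = 1 for each, over 18193 genes), where 0.0055% of all tested genes did. That share is 1 gene, AGRP (adjusted p = 0.0296), the feeding peptide of arcuate neurons, and with any 1 pool left out 0 genes were called. At an unadjusted p under 0.05 there was 1 of the 9, EYA3, against 1.7% of all tested genes. DESeq2 and limma voom also called 0 of the 9. Log2 fold changes, food-restricted minus well fed, were above 0 for 4 of the 9 and below 0 for 5, with a median of -0.03, where the median of all tested genes was 0.01. In bulk tissue, fewer cells of a type and less RNA per cell cannot be told apart.

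**Figure D1:**
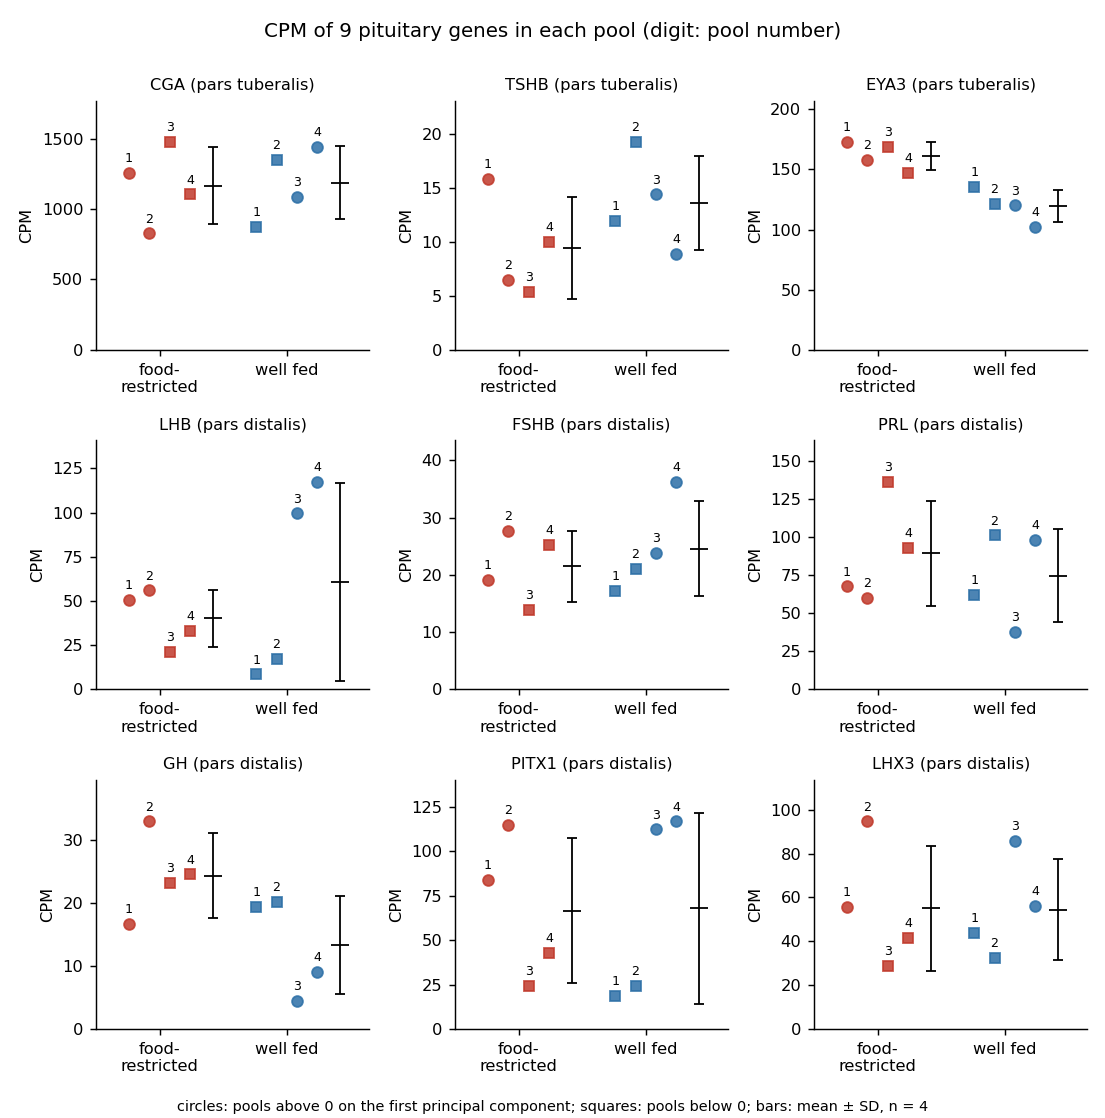
CPM (vertical axis, from 0) of each gene in the food-restricted (red) and well-fed (blue) pools, with circles for upper and squares for lower pools of the first principal component, digits for pool numbers and bars for the mean and SD of 4 pools. EYA3 is the gene whose groups do not overlap, while LHB, PITX1 and LHX3 part into upper and lower pools.

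CGA encodes the alpha subunit that thyrotropin, luteinising hormone and follicle-stimulating hormone share. It was at 1258, 827, 1474 and 1104 CPM in food-restricted pools 1 to 4 and at 872, 1347, 1085 and 1444 CPM in well-fed pools 1 to 4. High and low pools occurred in both groups and on both sides of the principal component. The means were 1166 ± 272 CPM in food-restricted and 1187 ± 259 CPM in well-fed pools (SD, n = 4 each). The difference was -0.03 on the log2 scale (SE 0.19; 95% interval -0.45 to 0.40). That interval runs from 0.731-fold to 1.32-fold.

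TSHB encodes the beta subunit that makes the dimer thyrotropin. It was at 15.8, 6.49, 5.34 and 10.01 CPM in food-restricted pools 1 to 4, against 11.9, 19.2, 14.4 and 8.87 CPM in well-fed pools 1 to 4. The 2 lowest pools were both food-restricted, but food-restricted pool 1 was the second highest of all. The log2 fold change was -0.53 (SE 0.34; 95% interval -1.28 to 0.23). Without food-restricted pool 1 it was -0.89 (SE 0.30), and over each of the 8 pools left out in turn it ran from -0.89 to -0.32. The highest pool was 3.60-fold above the lowest, which had 229 TSHB reads (4.67 to 6.08 CPM by exact Poisson, 95%, for counting error only). TSHB did not follow CGA: food-restricted pool 3, the highest for CGA, was the lowest for TSHB. Among the lower pools TSHB averaged 7.68 CPM with food restriction and 15.6 CPM in well-fed pools, and among the upper pools 11.2 CPM and 11.6 CPM (n = 2 each, with no test).

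EYA3 was at 173, 158, 169 and 147 CPM in food-restricted pools 1 to 4 and at 135, 122, 120 and 102 CPM in well-fed pools 1 to 4. Every food-restricted pool exceeded every well-fed pool. The groups were without overlap in that direction in 0.495% of all tested genes, and of the 9 pituitary genes EYA3 was the 1 without overlap in either direction, where 1.6% of all tested genes were. None of the 9 (0) lay wholly below the well-fed pools, where 1.1% of all tested genes did. Its means were 161 ± 11.6 CPM with food restriction and 120 ± 13.4 CPM in well-fed ewes (SD, n = 4 each). The log2 fold change was 0.43 (SE 0.11; 95% interval 0.18 to 0.68), or 1.35-fold. Its unadjusted p of 0.00284 (edgeR) was the 19th smallest of 18193 and did not pass after adjustment (edgeR adjusted p = 1). The coefficient of variation between pools was 7.20% in food-restricted and 11.2% in well-fed pools, the lowest of the 9 genes in both groups. On the sides of the principal component it was at 165 against 111 CPM in upper pools and 158 against 128 CPM in lower pools (n = 2 each). The direction on each side follows from the lack of overlap and adds no further support. With the side as a block, its log2 fold change was 0.43 (SE 0.10; edgeR adjusted p = 0.541), and with 1 surrogate variable 0.44 (SE 0.09; edgeR adjusted p = 0.2). Over its 21 alternatives the adjusted p ran from 0.2 to 1 and the log2 fold change from 0.35 to 0.49.

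**Figure D2:**
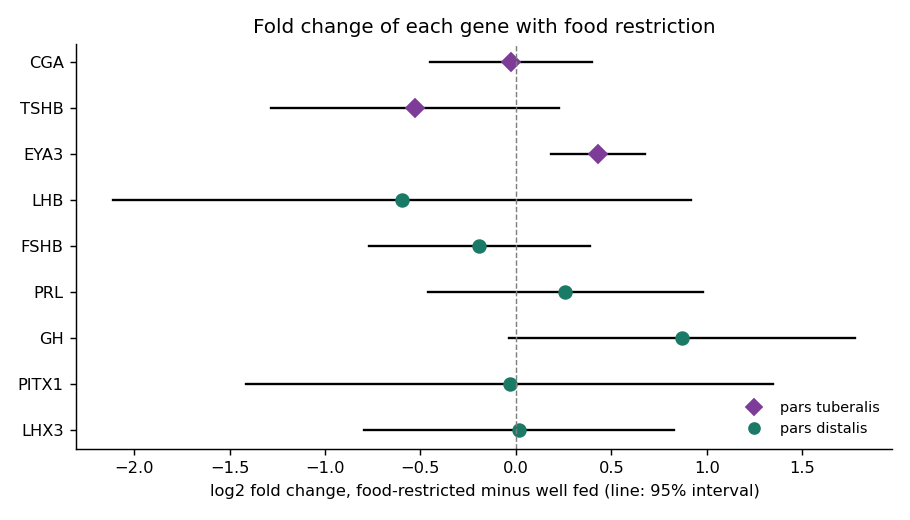
Log2 fold change, food-restricted minus well fed, of each gene (horizontal axis) with its 95% interval from the edgeR fit, diamonds for pars tuberalis and circles for pars distalis genes. The interval of EYA3 (0.18 to 0.68) lies above 0 before adjustment, and the intervals of the other 8 genes include 0.

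Of 11 partners of EYA3 and genes of its photoperiod pathway tested, 4 had a log2 fold change above 0 and 7 below, 0 were called, and the median was -0.04. TEF, a clock-controlled transcription factor that acts with EYA3 on TSHB, was at 170 ± 16.1 CPM with food restriction and 176 ± 7.39 CPM in well-fed pools (log2 fold change -0.04, SE 0.10). EYA1, a relative of EYA3, was at 7.27 ± 0.755 against 6.68 ± 1.02 CPM (0.12, SE 0.17). Among the other homeodomain and clock-output genes, SIX2 was at -0.22 (SE 0.22) and HLF at -0.65 (SE 0.69), and NPAS4, an activity-induced factor, at 0.18 (SE 0.21). The list of 10 pars tuberalis genes had 5 above 0 and 5 below (median 0.02, 0 called). In it, TAC1, the precursor of substance P, which also marks many neurons, was at 90.4 ± 12.4 against 81.2 ± 3.85 CPM (0.16, SE 0.12). MTNR1A, the melatonin receptor MT1 that marks the pars tuberalis, was at 5.05 ± 0.778 against 4.69 ± 0.904 CPM (0.11, SE 0.21). CHGA, a granule protein of many endocrine cells, was at -0.03 (SE 0.19). The summed CPM of the list was between 3363 and 3991 in food-restricted and between 2855 and 4562 in well-fed pools.

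LHB encodes the beta subunit of luteinising hormone and varied most between pools of the 9 genes. It was at 50.5, 56.0, 21.0 and 33.1 CPM in food-restricted pools 1 to 4 and at 8.55, 17.4, 99.6 and 117 CPM in well-fed pools 1 to 4. Well-fed pools held both the 2 highest and the 2 lowest values, 13.7-fold apart, and the food-restricted pools lay between them. The log2 fold change of -0.60 had an SE of 0.68 and a 95% interval from -2.11 to 0.92, which admits from 0.232-fold to 1.89-fold. It was -0.06 without well-fed pool 4, -0.25 without well-fed pool 3 and -0.96 without well-fed pool 1. With the side as a block it was -0.02 (SE 0.35). The direction turned with the side of the principal component. In upper pools LHB averaged 53.3 CPM with food restriction and 109 CPM in well-fed ewes, and in lower pools 27.0 CPM and 13.0 CPM, with no overlap in either set (n = 2 each). This difference between the sides was not tested.

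FSHB, the beta subunit of follicle-stimulating hormone, was steadier. It was at 19.2, 27.6, 13.9 and 25.3 CPM in food-restricted pools 1 to 4 and at 17.2, 21.0, 23.9 and 36.2 CPM in well-fed pools 1 to 4. The groups overlapped over most of their range, and well-fed pool 4 was the highest for FSHB as for LHB. The log2 fold change was -0.19 (SE 0.26; 95% interval -0.77 to 0.39). Without well-fed pool 4 it was 0.06 (SE 0.24).

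PRL, the hormone of lactotrophs, was at 67.8, 60.3, 136 and 93.2 CPM in food-restricted pools 1 to 4 and at 61.9, 101, 37.8 and 98.1 CPM in well-fed pools 1 to 4. Food-restricted pool 3 was the highest and well-fed pool 3 the lowest, 3.61-fold apart. Means were 89.4 ± 34.4 CPM with food restriction and 74.7 ± 30.4 CPM in well-fed ewes (SD, n = 4 each). On the log2 scale PRL differed by 0.26 (SE 0.33; 95% interval -0.46 to 0.98). It was -0.02 without food-restricted pool 3 and 0.05 without well-fed pool 3.

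GH, the hormone of somatotrophs, had the largest fold change of the 9 genes. It was at 16.7, 33.0, 23.3 and 24.5 CPM in food-restricted pools 1 to 4 and at 19.4, 20.2, 4.46 and 9.12 CPM in well-fed pools 1 to 4. The 3 highest pools were food-restricted and the 2 lowest well fed, but food-restricted pool 1 lay below well-fed pools 1 and 2. Means were 24.4 ± 6.70 CPM with food restriction and 13.3 ± 7.78 CPM in well-fed ewes (SD, n = 4 each). The log2 fold change was 0.87 (SE 0.41; 95% interval -0.04 to 1.78) with an unadjusted p of 0.0581 (edgeR adjusted p = 1). Without well-fed pool 3, the lowest, the log2 fold change was 0.60 (SE 0.30), and without well-fed pool 2 it was 1.15 (SE 0.43). That lowest pool had 214 GH reads (3.88 to 5.101 CPM by exact Poisson, 95%, for counting error only). On each side of the principal component GH was higher with food restriction: 24.8 against 6.79 CPM in upper pools and 23.9 against 19.8 CPM in lower pools (n = 2 each). With the side as a block its log2 fold change was 1.05 (SE 0.31; edgeR adjusted p = 0.991). The ovine GH gene exists in near-identical copies on some chromosomes, and reads of such copies would not be told apart in the single GH row.

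PITX1 and LHX3 are homeodomain transcription factors that set up the anterior pituitary and activate its hormone genes. PITX1 was at 84.2, 115, 24.3 and 43.0 CPM in food-restricted pools 1 to 4 and at 18.5, 24.5, 112 and 117 CPM in well-fed pools 1 to 4. LHX3 was at 55.6, 94.7, 28.7 and 41.5 CPM in food-restricted pools and at 43.8, 32.3, 85.7 and 56.2 CPM in well-fed pools. For both genes the 4 upper pools lay above the 4 lower pools, 2 of each group on each side. Between the feeding groups the log2 fold change was -0.03 (SE 0.62; 95% interval -1.41 to 1.35) for PITX1 and 0.02 (SE 0.37; -0.80 to 0.83) for LHX3. With the side as a block these were 0.21 (SE 0.20) and -0.02 (SE 0.18). The smaller SE follows from the parting of both genes by side and adds no further support. The sign of both depended on which pools or tools were used.

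**Figure D3:**
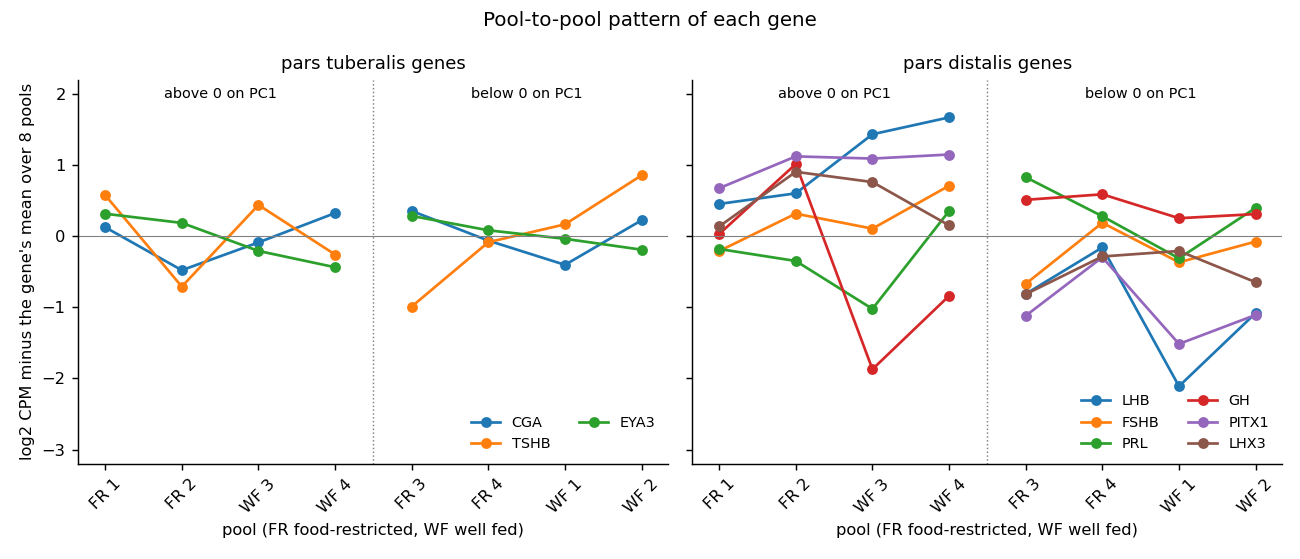
Log2 CPM of each gene minus its mean over 8 pools (vertical axis) in each pool (FR food-restricted, WF well fed), for 3 pars tuberalis genes (left) and 6 pars distalis genes (right). LHB, PITX1 and LHX3 drop from upper to lower pools, GH is lowest in well-fed pools 3 and 4, and no pool is high for all 6 pars distalis genes.

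As a check on how much pars distalis was collected, the 2 sets of genes were compared pool by pool. The mean log2 CPM of the 6 pars distalis genes was 5.38, 5.83, 4.88 and 5.28 in food-restricted pools 1 to 4 and 4.52, 4.86, 5.31 and 5.76 in well-fed pools 1 to 4. The mean of the 3 pars tuberalis genes was 7.24, 6.57, 6.79 and 6.88 in food-restricted pools and 6.81, 7.20, 6.95 and 6.78 in well-fed pools. The pars distalis mean thus ranged over 1.31 log2 units and the pars tuberalis mean over 0.671. Pars tuberalis minus pars distalis averaged 1.53 ± 0.541 with food restriction and 1.82 ± 0.623 in well-fed pools (SD, n = 4 each), a difference of -0.29 that is smaller than either SD. It was the smallest in food-restricted pool 2 (0.740) and well-fed pool 4 (1.02) and the largest in well-fed pools 1 (2.29) and 2 (2.34). Without food-restricted pool 2 the difference between groups was -0.03, and without well-fed pool 4 it was -0.56.

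The pars distalis mean hides opposite orders of its genes. In well-fed pool 3, LHB was at 99.6 CPM, its second highest value, while PRL (37.8 CPM) and GH (4.46 CPM) were at their lowest. In food-restricted pool 3, PRL was at its highest and FSHB at its lowest. Well-fed pool 4 was the highest for LHB, FSHB and PITX1 and the second lowest for GH. No pool was among the 2 highest for all 4 pars distalis hormones.

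Some further transcripts that mark the pars distalis were low or at 0 in these libraries. POU1F1, the factor that lactotrophs, somatotrophs and thyrotrophs of the pars distalis require, had between 0 and 12 reads per pool and was not tested. LHX4 had at most 6 reads, NEUROD4 at most 10, the thyrotropin-releasing hormone receptor TRHR at most 18 and the somatostatin receptor SSTR5 at most 17. AVPR1B, the vasopressin receptor of corticotrophs, was listed at 0 in all pools. A count of 0 allows up to 3 reads, or 0.0625 to 0.0845 CPM depending on the pool, by counting error only. SST, an abundant hypothalamic transcript, was also listed at 0 in all pools, so a row at 0 in this table is not read as absence of the transcript. GHRHR, the receptor that marks somatotrophs, was at most 0.374 CPM in any pool and the gonadotroph receptor GNRHR between 0.494 and 2.65 CPM.

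Genes that part into upper and lower pools were counted in each list, beside the share of all tested genes that do so. Of the 9 genes, 3 (LHB, PITX1 and LHX3) were higher in all upper than in all lower pools and 0 were lower, where 14.2% of all tested genes were higher and 8.93% lower. Among 13 tested pituitary transcription factors, 6 were higher in all upper pools: besides PITX1 and LHX3, these included NR5A1, GATA2 and SIX6. LHB averaged 80.9 CPM in upper and 20.02 CPM in lower pools, PITX1 107 and 27.5 CPM, and LHX3 73.0 and 36.6 CPM (n = 4 each). The same pools were higher for 2 of 4 genes listed for the posterior pituitary, AVP (vasopressin, 181 and 41.1 CPM) and OXT (oxytocin, 32.7 and 2.53 CPM). The name of that list does not place their transcripts in that lobe. From the same list, SCN7A (5.33 and 6.41 CPM) and RAX (1.15 and 0.824 CPM), which is also on the tanycyte list, overlapped between the sides. Of 4 markers of vessels and meninges 2 were higher in all upper pools, CLDN5 (17.1 and 3.41 CPM) and COL1A1 (90.9 and 62.5 CPM). COL3A1 (36.3 and 40.3 CPM) and PECAM1 (34.9 and 38.6 CPM) overlapped, with lower means in upper pools, so the list has no common direction. POMC, which is made in corticotrophs and in arcuate neurons, was higher in all upper pools (276 and 74.7 CPM). Of 7 releasing factors 3 were higher in all upper pools. The same held for 1 of 8 genes of the mediobasal hypothalamus, 1 of 4 neuron markers, 1 of 10 pars tuberalis genes and 1 of 11 partners of EYA3 and photoperiod genes. It held for 0 of 10 tanycyte genes, 0 of 6 receptors for releasing factors and 0 of 4 receptors for pituitary hormones. In lists this short, counts of 0 or 1, and also 2 of 4, 3 of 7 or 3 of 9, cannot be set apart from the 14.2% of all tested genes. No list was tested. In the other direction, 1 gene each of the pars tuberalis list, the pars distalis list (SCG2) and the list of EYA3 partners was higher in all lower pools. CGA, TSHB, EYA3, FSHB, PRL and GH overlapped between the sides. The part of these other transcripts in the LHB, PITX1 and LHX3 values was not tested.

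**Figure D4:**
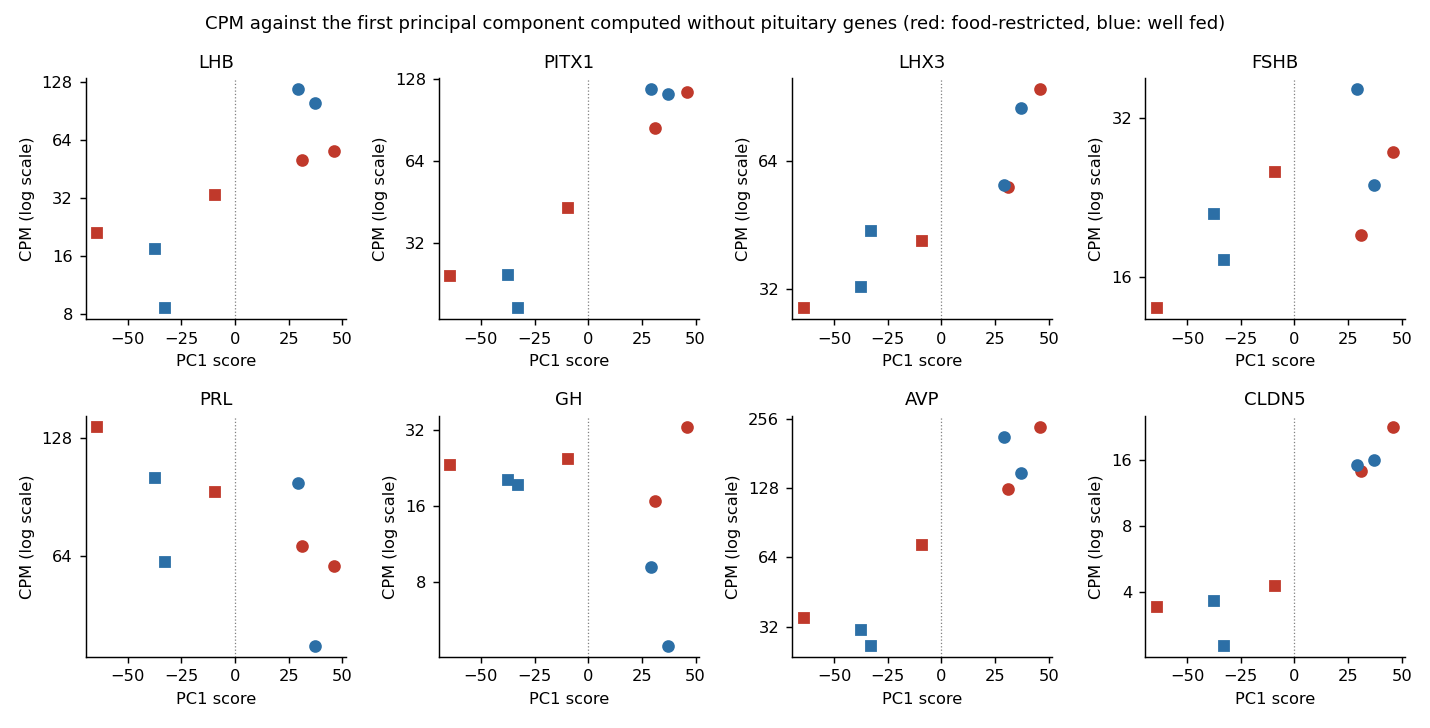
CPM on a log scale (vertical axis) against the pool's score on the principal component computed without 36 genes of the anterior pituitary lists (horizontal axis), red for food-restricted and blue for well-fed pools. LHB, PITX1 and LHX3 are higher in the 4 pools with positive scores, as are AVP and CLDN5, which stayed in the component, while PRL and GH overlap across 0.

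Genes of the pathways around the pituitary were read from lists, and AGRP was the 1 gene called among them. Of the 8 hormone and secretory genes of the pars distalis list, 2 had a log2 fold change above 0 and 6 below (median -0.16, 0 called). PCSK1, the convertase that cleaves prohormones, was at 285, 287, 344 and 286 CPM in food-restricted pools 1 to 4 and at 395, 359, 373 and 330 CPM in well-fed pools (log2 fold change -0.28, SE 0.10; unadjusted p = 0.0206 and edgeR adjusted p = 1). Food-restricted pool 3 alone overlapped the well-fed pools. The granule proteins CHGB (-0.18, SE 0.09) and SCG2 (-0.14, SE 0.12) did not pass. The list's summed CPM was between 3272 and 3774 in food-restricted and between 3567 and 4060 in well-fed pools. SCG2 (mean over all pools 2143 CPM), CHGB (795 CPM) and PCSK1 (332 CPM) were its most abundant genes. The sum thus mostly follows them and is no measure of the pars distalis hormones.

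Pituitary transcription factors had 9 of 13 above 0 (median 0.08, 0 called). GATA2, a factor of gonadotrophs and thyrotrophs, was at 109, 134, 26.3 and 40.1 CPM in food-restricted pools 1 to 4 and at 22.6, 24.8, 91.3 and 99.7 CPM in well-fed pools 1 to 4, in upper and lower sets as PITX1 was. PAX7, of the intermediate lobe, stayed under 1 CPM in every pool (-0.75, SE 0.60). Receptors for releasing factors had 3 of 6 above 0 (median -0.01), with CRHR1, the receptor for corticotropin-releasing hormone, at -0.25 (SE 0.21) and the somatostatin receptor SSTR2 at 0.06 (SE 0.13).

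Genes through which pituitary hormones act on the hypothalamus were examined next. The thyrotropin receptor TSHR was at 5.95, 7.57, 5.23 and 5.64 CPM in food-restricted pools 1 to 4 and at 7.23, 6.97, 7.11 and 6.90 CPM in well-fed pools 1 to 4. Food-restricted pool 2 was the highest of all and the other 3 food-restricted pools the lowest, and the log2 fold change was -0.21 (SE 0.17). Of 10 tanycyte genes that respond to thyrotropin or handle thyroid hormone, 3 were above 0 and 7 below (median -0.20, 0 called). DIO2, the thyrotropin-induced enzyme that activates thyroid hormone, was at 57.0, 53.4, 82.6 and 55.2 CPM in food-restricted pools 1 to 4 and at 101, 111, 76.2 and 85.6 CPM in well-fed pools 1 to 4. Food-restricted pool 3, where TSHB was lowest, had the highest DIO2 of its group, and it alone overlapped the well-fed pools. The log2 fold change of DIO2 was -0.59 (SE 0.17) with an unadjusted p of 0.00564 (edgeR adjusted p = 1). The thyroid hormone transporter SLCO1C1 (-0.33, SE 0.19) did not pass, and the receptor THRA (-0.03, SE 0.11) and the tanycyte filament VIM (0.02, SE 0.11) were close to 0. Of 4 tested receptors for pituitary hormones 3 were above 0 (median 0.16, 0 called). The growth hormone receptor GHR was at 19.4 ± 3.37 CPM against 17.0 ± 0.964 CPM (0.19, SE 0.15), while FSHR was under 1 CPM in all pools (0.83, SE 0.91).

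Releasing factors, which act from the hypothalamus on the pituitary, had 3 of 7 tested genes above 0 (median -0.10, 0 called). GNRH1, which drives the gonadotrophs, was at 6.06, 4.57, 6.30 and 6.17 CPM in food-restricted pools 1 to 4 and at 3.60, 5.02, 2.96 and 4.84 CPM in well-fed pools 1 to 4 (0.49, SE 0.22; edgeR adjusted p = 1). TAC3 (-0.35, SE 0.13) and KISS1 (-0.33, SE 0.36), peptides of the neurons that drive GNRH1 release, and TRH (0.12, SE 0.22) did not pass. SST, which restrains growth hormone release, was not tested. Of 4 genes listed for the posterior pituitary 4 were above 0 (median 0.25, 0 called), with SCN7A at 0.28 (SE 0.22), RAX at 0.27 (SE 0.47), AVP at 0.17 (SE 0.70) and OXT at 0.23 (SE 1.14). Their summed CPM was between 44.9 and 294 in food-restricted and between 33.9 and 256 in well-fed pools. Among 8 genes of the mediobasal hypothalamus, 6 were above 0 and AGRP was called, with a median of 0.11. AGRP rose, at 155 ± 25.9 CPM with food restriction and 50.7 ± 10.1 CPM in well-fed pools (1.61, SE 0.17), and NPY, its partner in the same neurons, was at 1.24 (SE 0.35; unadjusted p = 0.00512) without passing after adjustment (edgeR adjusted p = 1). Over the 21 alternatives AGRP was not called in 10, and NPY was called in 2.

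Markers of other cells in such a block were read in the same way. Of 4 general neuron markers 3 were above 0 (median 0.08, 0 called), with SNAP25 at 0.10 (SE 0.10) and STMN2 at 0.00 (SE 0.12). Of 4 markers of vessels and meninges 1 was above 0 (median -0.13, 0 called). The collagen COL3A1 was at 33.0 ± 5.38 against 43.7 ± 2.38 CPM (-0.40, SE 0.14), without overlap of the groups. Of 3 red blood cell genes 1 was tested, the haemoglobin gene HBB, at 0.497 ± 0.363 against 2.00 ± 1.21 CPM (-2.01, SE 0.82). It too was without overlap, which 1.1% of all tested genes were in that direction. The part of blood or connective tissue in the pituitary values was not tested.

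**Figure D5:**
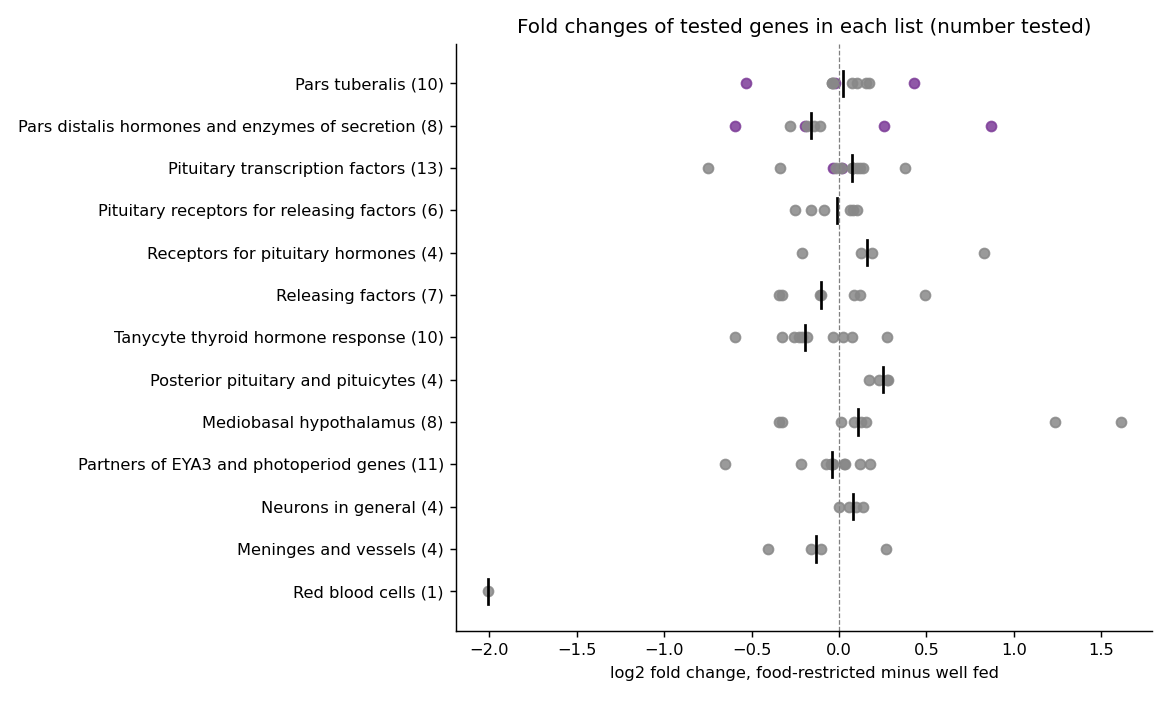
Log2 fold change, food-restricted minus well fed (horizontal axis), of the tested genes of each list, with purple points for the 9 pituitary genes, grey points for the others and a black bar for the list median. Medians of the 4 pituitary lists lie between -0.16 and 0.08, and the points above 1 are AGRP and NPY.

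The genes most like CGA, PRL, TSHB and EYA3 over the 8 pools were found by the correlation of log2 CPM with every tested gene that has a symbol and a mean of at least 1 CPM. These are the highest of all such values and carry no test. For CGA they were B2M (Pearson's r 0.97, Spearman's rho 0.93), BCAS2 (0.96 and 0.93), RPL37A (0.96 and 0.98), SEC61G (0.96 and 0.90) and BHLHE22 (0.95 and 0.86). For PRL they were ANAPC16 (0.98 and 0.98), NUP35 (0.98 and 0.90), RPL4 (0.97 and 0.98), EXOSC8 (0.96 and 1.00) and C23H18orf21 (0.96 and 0.88). For TSHB they were PRSS23 (0.96 and 0.95), CELA1 (0.95 and 0.88), PPM1J (0.94 and 0.93), PCDHB7 (0.94 and 0.93) and MSR1 (0.92 and 0.83). For EYA3 they were FMN1 (0.96 and 0.98), ADAMTS18 (0.94 and 0.98), TCFL5 (0.93 and 1.00), C2H8orf58 (0.92 and 0.81) and TRIL (0.92 and 0.86). None of these 20 is a pituitary hormone gene or another of the 9. A search of so many genes over 8 pools gives high values by selection alone. Absence from these short lists therefore cannot show whether CGA, PRL and TSHB vary together.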

How the data were processed

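RNA of 15 ewes per pool was extracted with TriReagent and made into stranded mRNA libraries, per the labels' protocols. The authors deposited whole-number read counts for each gene, 1 column per pool, per the file headers. TopHat2 2.1.1, Bowtie2 2.3.5.1 and featureCounts 2.0.0 are named, with no order, per the submitters' processing notes. The genome build, the annotation and the strand setting of the counting have no entry in the sources used here, so no coordinates are printed. In RefSeq's gene table (assembly ARS-UI_Ramb_v3.0), used for names and neighbours only, 28100 gene IDs (83.6%) were found, 471 LOC names were replaced, and none of the 9 genes overlapped another (0 of 9).

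The test was run with edgeR 4.0.16 in R 4.3.3 (filterByExpr with minimum count 10 and total 15, TMM scaling, glmQLFit and glmQLFTest without covariates, Benjamini-Hochberg adjustment over 18193 genes, threshold 0.05). Its recovery of fold changes was checked on counts simulated independently for each gene. Differences between pools that many genes share were outside that check. The common biological coefficient of variation was 28.3%. The SE was obtained from the log2 fold change and its F statistic. Log2 CPM used a prior count of 2. Single-pool intervals are exact Poisson at 95%. Figures were drawn with Python 3.11.15. No 2 pools of a group agreed within sampling noise (lowest chi-square per degree of freedom 25.02, highest 169).

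The 9 genes, the 13 lists (92 genes) and the alternatives were chosen with earlier results of these data known. Some genes of the lists are not reported here. Named otherwise are the 9 genes, the 3 genes with the smallest p and the 2 most abundant of each list, and the 5 genes most like CGA, PRL, TSHB and EYA3; NKX2-1, GHRH, POMC, NR5A1, SIX6, CLDN5, GNRHR, GHRHR, SST and the untested receptors and factors were named after their values were seen. Alternatives were other scalings (RLE, upper quartile, totals alone), other filters (none, or 1 CPM in 4 pools), each pool left out, the replicate number as a block, food-restricted pools 1 and 3 both left out, robust edgeR, DESeq2 1.42.0, limma 3.58.1 voom with and without quality weights, 1 surrogate variable (sva 3.50.0), and the upper or lower side as a block.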

Additional observations from a re-analysis of the deposited data

Results flagged for a closer look

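Within groups of 4 pools, 6 of 106 values tested (53 genes in 2 groups) had 1 pool far from the other 3, where chance flags about 5% of groups. None was among the 9 pituitary genes. In food-restricted pool 3, PCSK1 was at 344 CPM (others 285 to 287), DIO2 at 82.6 CPM (others 53.4 to 57.0) and SNAP25, a general neuron marker, at 727 CPM (others 578 to 603). GNRH1 was at 4.57 CPM in food-restricted pool 2 (others 6.06 to 6.30), and AGRP at 193 CPM in food-restricted pool 1 (others 137 to 146). PAX7 was at 0.141 CPM in well-fed pool 4 (others 0.598 to 0.681).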

How the results depend on the processing

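None of the 9 pituitary genes was called under any of the 21 alternatives (0 of 9 each time), and EYA3, GH and TSHB kept their direction in all of them. Over all genes, 1 was called in the main test, 0 with the replicate number as a block, 4 with DESeq2 (1 higher, 3 lower), 7 with 1 surrogate variable (3 higher, 4 lower), 6 with the upper or lower side as a block (2 higher, 4 lower), 0 without food-restricted pools 1 and 3, and 0 to 0 with each pool left out. Same-numbered pools were not alike: their deviations correlated at -0.42 to -0.21, and no food-restricted pool correlated best with the well-fed pool of its own number. Food-restricted pools 1, 2, 3 and 4 correlated best with well-fed pools 4, 3, 2 and 1. Whether the numbers follow an order of handling is not given by the labels and was not tested. Values whose sign turned are log2 fold changes. With the replicate block they were 0.020 for LHB, -0.031 for LHX3 and 0.20 for PITX1. With limma voom they were 0.057 for LHB, -0.039 for LHX3, 0.20 for PITX1 and -0.15 for FSHR, and with quality weights -0.13 for LHX3 and -0.014 for VIM. With 1 surrogate variable they were -0.15 for LHX3 and 0.021 for STMN2. With the side as a block they were -0.016 for LHX3, 0.21 for PITX1 and 5.0e-06 for STMN2. With upper-quartile scaling LHX3 was at -6.3e-05, and STMN2 was at 0.0070 with RLE factors or DESeq2 and 0.00094 with library totals. Without food-restricted pools 1 and 3 they were 0.11 for FSHB, 0.20 for PITX1, 0.083 for CHGA, 0.077 for COL1A1, -0.012 for SYT1, -0.0018 for TAC1, 0.037 for TEF and 0.079 for THRA. With each pool left out, the ranges were -0.16 to 0.12 for CGA, -0.33 to 0.055 for FSHB, -0.019 to 0.44 for PRL, -0.42 to 0.36 for PITX1 and -0.36 to 0.33 for LHX3. Among other genes they were -0.41 to 0.78 for AVP, -1.06 to 1.00 for OXT, -0.17 to 0.13 for CHGA, -0.011 to 0.74 for GATA2, -1.26 to 0.19 for HLF, -0.013 to 0.21 for MTNR1A, -0.089 to 0.093 for STMN2, -0.089 to 0.0028 for TEF, -0.10 to 0.028 for THRA, -0.12 to 0.27 for TRH and -0.054 to 0.069 for VIM. The cause of these turns was not tested. The 3 other scalings moved the median of all genes by -0.0096 to 0.0073.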
